A study of Mus musculus with 653 samples.

Results

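A set of 10 genes of blood vessel lining and of liver sinusoids were followed through single cells of the embryonic mouse liver. The genes were *Pecam1*, *Cdh5*, *Kdr*, *Tek* and *Emcn*, used here as pan-endothelial genes, *Stab1*, *Stab2*, *Lyve1* and *Flt4*, used here as sinusoidal genes, and *Fabp4*, a fatty acid binding protein of capillaries. They are 10 of the 54195 genes in the count table. A gene was called present in a cell when it had more than 10 reads, and a cell was called endothelial-marked when at least 3 of the 10 genes were present. By this rule, 31 cells were endothelial-marked and the other 622 were not (4.75% of all cells, 95% exact interval 3.25 to 6.67%).

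Endothelial cells line every vessel and hold each other through a junctional cadherin and PECAM1, and they answer to VEGF and angiopoietins through receptor tyrosine kinases. In the liver, the capillaries between the hepatocyte cords are sinusoids, whose lining is fenestrated and carries scavenger receptors that clear waste from the blood. The sinusoids form early in liver development, together with the liver bud, and are among the non-parenchymal cells that surround the hepatoblasts.

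Embryos came from male Lgr5-EGFP-IRES-creERT2 mice, kept on C57BL/6, crossed with MF1 females, and were collected at E10.5 or E13.5. In this line the EGFP reporter is knocked in to the *Lgr5* locus, so GFP fluorescence stands for activity of that locus, and the GFP protein can outlast the transcript. Cells were sorted as Liv2+/CD31-/CD45- (bulk) or as Liv2+/CD31-/CD45-/Lgr5-GFP+, and the labels call all of them hepatoblasts. Liv2 is a surface antigen of embryonic liver progenitors, CD31 is the protein product of *Pecam1*, and CD45 is the product of *Ptprc*, so the gate was set to leave out cells that carry either protein. There were 414 cells at E10.5, in bulk and Lgr5-GFP+ sorts of about equal size, and at E13.5 the Lgr5-GFP+ sort gave 80 cells and the bulk sort a larger number. Each library is 1 cell and the labels tie no cell to an embryo, litter or biological replicate. The study describes several experiments, but the labels do not assign cells to them, so each of the 4 groups was treated as 1 sample with no test between groups, and intervals cover counting error only. Reads per cell ranged from 463347 to 2279700, with a median of 1326254 in the endothelial-marked cells and 1184221 in the other cells.

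The stretch of DNA upstream of 3 of the genes is shown because their reads were found in the same cells, with *Emcn* and *Stab1* both present in 17 cells and either in 37. RefSeq promoter sequences (GRCm38.p6) matched 6 of the 10 genes (*Emcn*, *Tek*, *Kdr*, *Stab1*, *Stab2* and *Flt4*). The windows hold 239 bases, from 250 to 12 bases before the RefSeq start, and in 4 of the 6 genes they were clear of annotated exons. The RefSeq start can differ from the gene positions given below, as it does for *Emcn*. Capitals mark matches to AGGAAG, a core bound by ETS factors, on either strand. *Stab1* lies at chr14:31168653-31168891 (minus strand), *Emcn* at chr3:137340828-137341066 (plus strand) and *Tek* at chr4:94739039-94739277 (plus strand).
Stab1: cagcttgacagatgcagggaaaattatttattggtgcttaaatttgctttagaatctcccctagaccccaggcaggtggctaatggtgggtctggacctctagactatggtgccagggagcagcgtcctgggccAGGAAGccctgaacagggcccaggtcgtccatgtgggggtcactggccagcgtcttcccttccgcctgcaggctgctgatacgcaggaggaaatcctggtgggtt
Emcn: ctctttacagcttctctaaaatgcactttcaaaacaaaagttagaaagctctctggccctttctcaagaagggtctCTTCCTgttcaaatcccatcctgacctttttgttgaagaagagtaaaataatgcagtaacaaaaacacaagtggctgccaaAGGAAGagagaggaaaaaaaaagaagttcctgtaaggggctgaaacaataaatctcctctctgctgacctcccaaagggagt
Tek: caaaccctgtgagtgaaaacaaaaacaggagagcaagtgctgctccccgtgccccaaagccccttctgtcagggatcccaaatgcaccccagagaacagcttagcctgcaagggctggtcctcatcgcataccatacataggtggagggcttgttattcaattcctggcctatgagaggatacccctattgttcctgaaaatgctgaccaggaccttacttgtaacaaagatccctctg
The match occurred once in the *Stab1* window and at 2 places in the *Emcn* window, on opposite strands, and no match was present in the *Tek* or *Kdr* windows. Of 32851 promoter windows of this length, 28.3% held AGGAAG, so 2 of 4 windows is a small count beside a common motif. A core bound by SOX factors, ACAATG, was held by 10.4% of all windows and by 0 of these 4. The letters of another core, for factors of the *Gata4* family, were AGATAA on either strand, and 9.71% of all windows and 0 of these 4 held them. A match describes the letters and is not a binding site.

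Endothelial-marked cells were most frequent among E13.5 Lgr5-GFP+ cells. In that group 19 of 80 cells passed (23.8%, 14.9 to 34.6%). In the bulk sort of the same stage only 1 cell passed (0.629%, 0.0159 to 3.45%). At E10.5 the shares were 3.45% in bulk (7 cells, 1.40 to 6.98%) and 1.90% in Lgr5-GFP+ (4 cells, 0.519 to 4.78%), and these intervals overlapped. The number of genes present split the 31 cells into 12 cells with 3 or 4 genes and 19 cells with at least 6. No cell had exactly 5. Of the 19 cells, 16 were E13.5 Lgr5-GFP+ and 3 were E10.5 bulk. All 10 genes were present in 11 cells, every one of them E13.5 Lgr5-GFP+.

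The E13.5 Lgr5-GFP+ cells that passed came from some library pools only. A pool is the set of cells whose libraries carry the same pool identifier, and the labels name 5. They also name 3 flow cells, and cells of pools 1, 2 and 3 occur on the same one. Shares by flow cell were not calculated. The shares were 0 of 13 and 0 of 27 cells in pools 1 and 2, which together allow a share of up to 7.50%. They were 10 of 19 cells in pool 3 (52.6%, 28.9 to 75.6%), 8 of 14 in pool 4 (57.1%, 28.9 to 82.3%) and 1 of 7 in pool 5 (14.3%, 0.361 to 57.9%). Pools 3 to 5 together held 19 of 40 cells (47.5%, 31.5 to 63.9%). In the same pools, 1 of 91 E13.5 bulk cells passed (1.10%, 0.0278 to 5.97%), which was 0 of 33, 1 of 34 and 0 of 24 in pools 3, 4 and 5. Thus the excess in the Lgr5-GFP+ sort at E13.5 came mainly from pools 3 and 4, and the 7 cells of pool 5 are too few to place it. Pools 3 to 5 were grouped after seeing the data. A difference between pools cannot be told apart here from one between embryos, sorts or days.

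**Figure D1:**
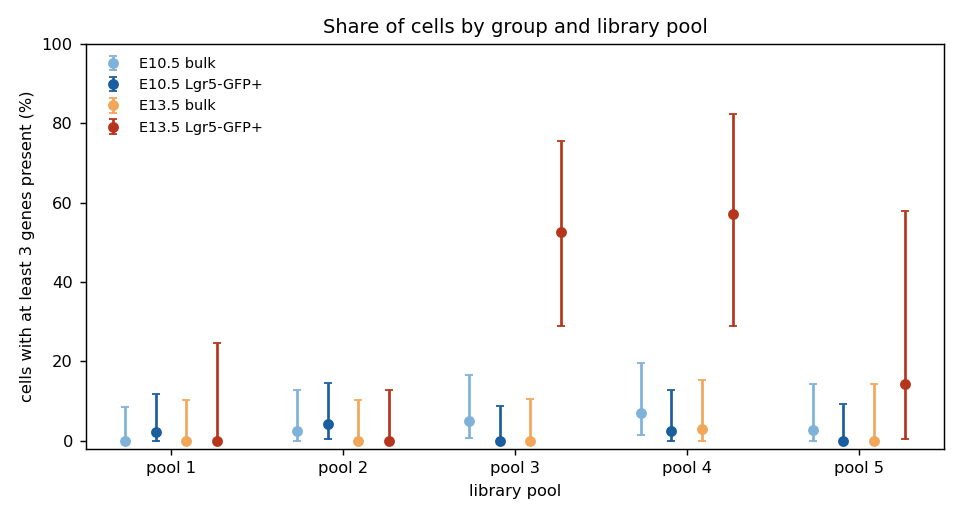
Percent of cells with at least 3 of the 10 genes above 10 reads (y axis) in each library pool (x axis), by group (colour), with 95% exact intervals for counting error. The E13.5 Lgr5-GFP+ cells reach 52.6% and 57.1% in pools 3 and 4, whereas they are at 0 in pools 1 and 2 and every other group stays at 7.14% or less in each pool.

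Of the pan-endothelial genes, *Cdh5* and *Kdr* were present in all 19 cells with many genes, *Pecam1* and *Tek* in 18 and *Emcn* in 15. Positions are those of the whole gene, exons and introns, on GRCm38. *Pecam1* (chr11:106654217-106750628), which encodes the adhesion molecule CD31, had 245 to 2690 reads in the 16 E13.5 Lgr5-GFP+ cells, or 637.9 reads per 1000000 reads (RPM) summed over them. It had 893, 87 and 3 reads in the 3 E10.5 bulk cells, so the 3 cells ran from the E13.5 range down to almost none. The transcript was therefore plentiful at E13.5 in cells that had been gated against its protein. *Cdh5* (chr8:104101625-104144511), the cadherin of endothelial junctions, had 311 to 3975 reads at E13.5 (737.1 RPM) and 11, 983 and 747 reads at E10.5. The lowest E10.5 cell was below every E13.5 cell, and the other two lay within the E13.5 range.

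The receptors of this group behaved much alike. *Kdr* (chr5:75932827-75978458), the main signalling receptor for VEGFA, had 757 to 2880 reads in 15 of the E13.5 cells and fewer in the remaining one (median 1132) and 35, 1549 and 956 at E10.5. *Tek* (chr4:94739289-94874976), the angiopoietin receptor, had 1 to 2513 reads at E13.5 (median 981) and 16, 1302 and 1034 at E10.5. It was present in 15 of the 16 E13.5 cells. For both receptors, as for *Cdh5*, the same E10.5 cell was the lowest. It was below the E13.5 range for *Kdr* but inside it for *Tek*. The remaining E10.5 cells sat inside the E13.5 range for both.

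*Emcn* went the other way. *Emcn* (chr3:137341067-137432185) encodes endomucin, a sialomucin of capillary and venous endothelium. It had 1105, 2060 and 2903 reads in the 3 E10.5 bulk cells and 0 to 1627 in the 16 E13.5 cells, where it was present in 12. Summed over cells, *Emcn* stood at 1511 (1473 to 1549) at E10.5 and 221 (214 to 227) at E13.5. The ranges of the cells overlapped, because 1 E13.5 cell had more *Emcn* reads than the lowest E10.5 cell.

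Of the sinusoidal genes, *Lyve1* and *Stab2* did not overlap between the 16 E13.5 Lgr5-GFP+ cells and the 3 E10.5 bulk cells. The cells were chosen on these genes, and the share of all genes that part the 16 and 3 cells this way was not calculated. *Lyve1* (chr7:110850607-110863239), a hyaluronan receptor of lymphatic and sinusoidal endothelium, had 1554 to 9772 reads in the 16 E13.5 cells (median 3640). At E10.5 it had 329 reads in 1 of the 3 cells and 0 in the other two, all below the E13.5 range. *Stab2* (chr10:86841198-87008025), a scavenger receptor that clears hyaluronan, had 45 to 2651 reads at E13.5 (median 932). It had 0 reads in all 11 endothelial-marked E10.5 cells. Summed over cells, the 3 E10.5 bulk cells allow up to 0.747 RPM of *Stab2* (3 counts), against 812 RPM (800 to 824) in the 16 E13.5 cells.

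*Stab1* and *Flt4* were already present at E10.5. *Stab1* (chr14:31139013-31168641), the scavenger receptor related to *Stab2*, had 217, 627 and 763 reads in the 3 E10.5 bulk cells and 210 to 4222 at E13.5 (median 1001). All 3 E10.5 cells fell within the E13.5 range. *Flt4* (chr11:49609263-49652739), the VEGFC receptor, had 15 reads in the lowest E10.5 cell and at least 408 in the other two, against 47 to 1392 at E13.5 (median 604), so again 1 E10.5 cell was below the E13.5 range. Reads on *Stab1* and on *Stab2* may include reads of *Nt5dc2* and *Gm16268*, which overlap them on the other strand, because the library kit keeps no strand.

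*Fabp4* (chr3:10204088-10208576) had no read in the endothelial-marked E10.5 cells, like *Stab2*. It was present in 13 of the 16 E13.5 Lgr5-GFP+ cells, with 0 to 5438 reads (median 1569). No cell outside the 31 had more than 3 reads of it. The 3 E13.5 cells without *Fabp4* each had 8 other genes present, and *Fabp4* and *Emcn* were the genes most often missing from otherwise complete profiles.

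**Figure D2:**
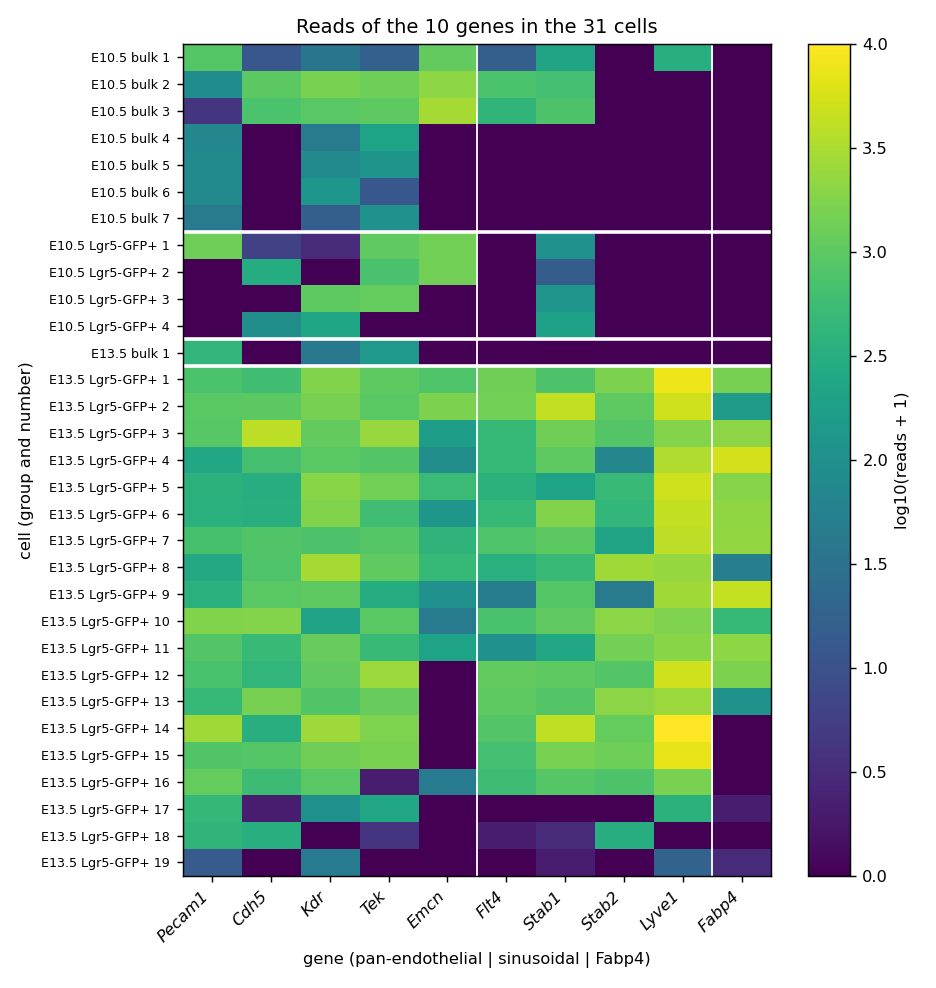
Reads of each gene (columns, pan-endothelial, sinusoidal, then Fabp4) in each of the 31 endothelial-marked cells (rows, by group and cell number), coloured by log10(reads + 1). Cells 1 to 16 of the E13.5 Lgr5-GFP+ group fill nearly all columns, with Lyve1 at 1554 to 9772 reads, whereas the Stab2 and Fabp4 columns are at 0 in all 11 E10.5 cells.

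Compared per kilobase of exon, the genes were ordered as follows. In the 16 E13.5 cells *Lyve1* led with 1091 RPM per kb, followed by *Fabp4* (258), *Tek* (181.4), *Cdh5* (175.4), *Kdr* (115.4), *Pecam1* (102.4), *Stab1* (99.6), *Stab2* (92.7), *Flt4* (62) and *Emcn* (40.8). The ranges of neighbours in this order overlapped over the 16 cells, so their ranks are not firm. Exon length was the union over all annotated transcripts. For *Fabp4* it was 4.49 kb, as long as the whole gene with its introns, against 2.92 kb for *Lyve1*. The value and rank of *Fabp4* depend on that length, and a shorter transcript would raise both. In the 3 E10.5 bulk cells *Emcn* led with 279 RPM per kb, followed by *Tek* (124.3), *Cdh5* (103.1), *Kdr* (70), *Pecam1* (39.3), *Stab1* (38.9), *Flt4* (34.7) and *Lyve1* (28.1).

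The balance of sinusoidal to pan-endothelial reads was next calculated, as the percent of the 9 genes' reads (*Fabp4* left out) that fell on *Stab1*, *Stab2*, *Lyve1* and *Flt4*. Over the 20 endothelial-marked E13.5 cells it was 60.72% (60.50 to 60.94%), from 116226 sinusoidal and 75183 pan-endothelial reads. Over the 11 E10.5 cells it was 13.06% (12.66 to 13.47%), from 3510 and 23360 reads. The sinusoidal share exceeded 50% in 15 of the 20 E13.5 cells and in 0 of the 11 E10.5 cells. Restricted to cells with at least 5 genes, it was 34.3 to 70.7% per cell at E13.5 (median 62.1%, 16 cells) and 17.2 to 21.4% at E10.5 (median 18.4%, 3 cells), and the ranges did not overlap. The sum of the 5 pan-endothelial genes was similar, with medians of 3380 RPM (2373 to 5963) at E13.5 and 3545 RPM (2017 to 4314) at E10.5. The sum of the 4 sinusoidal genes was 5004 RPM (3111 to 10409) against 801 RPM (549 to 895). The ranges of the pan-endothelial sum thus overlapped between the stages, whereas those of the sinusoidal sum did not. With only 3 cells at E10.5, and cells chosen on these genes, this is a description only. All 16 E13.5 cells were Lgr5-GFP+ and all 3 E10.5 cells were bulk, so stage and sort cannot be told apart in this comparison. Most of the weight came from *Lyve1*, and without it the E13.5 value was 39.6% and the E10.5 value 12%.

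**Figure D3:**
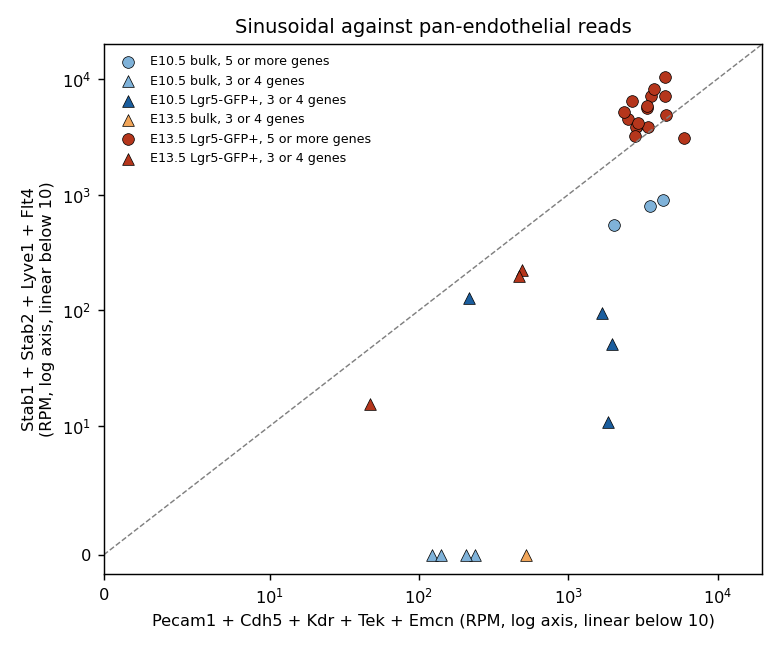
Summed RPM of the 4 sinusoidal genes (y axis) against that of the 5 pan-endothelial genes (x axis) in the 31 endothelial-marked cells, both on log axes that are linear below 10, with equality dashed. The E13.5 Lgr5-GFP+ cells with many genes (red circles) lie between 3111 and 10409 RPM on the y axis, above the 3 E10.5 bulk cells (blue circles) at 549 to 895, at similar values on the x axis.

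The 12 cells with 3 or 4 genes looked different. *Runx1*, a transcription factor of blood progenitors and megakaryocytes, was present in 8 of the 12, *Itga2b*, the CD41 integrin chain, in 7, and *Pf4*, the platelet chemokine, in 6. In the cells with many genes, *Runx1* and *Pf4* were each present in 1 of 16 at E13.5 and 0 of 3 at E10.5. *Itga2b* was less distinct, present in 5 of 16 and 1 of 3. In the 4 E10.5 bulk cells of this kind the genes present were *Pecam1* (42 to 79 reads), *Kdr* (at least 15) and *Tek* (at least 11), with 0 reads on all 4 sinusoidal genes. Their *Itga2b* reads ranged from 669 to 4143 and their *Runx1* reads from 219 to 967.

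The remaining 8 such cells were mixed. The 4 E10.5 Lgr5-GFP+ cells had *Tek* (0 to 1118 reads) and *Stab1* (at least 14), and 2 of them had *Emcn* at 1424 and 1426 reads. *Col3a1*, a collagen of mesenchyme, was present in 3 of these 4, with up to 662 reads. At E13.5, 2 Lgr5-GFP+ cells had 72027 and 43024 *Pf4* reads beside *Lyve1* at 369 and 18 reads, and the remaining one had the macrophage genes *Csf1r* (1882 reads) and *C1qa* (1793) with *Ptprc* (479) beside *Stab2* (309) and *Cdh5* (318). The only bulk cell at E13.5 had *Pecam1* (426 reads), *Kdr* (41) and *Tek* together with the erythroid gene *Klf1* (543). The part of blood or mesenchymal RNA in these calls was not tested.

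Just outside the rule, 19 cells had exactly 2 genes present. Of the 19, 9 were E13.5 Lgr5-GFP+, and in these the pairs were mostly of *Cdh5*, *Stab1* and *Pecam1*, with *Ptprc* present in 6 and *C1qa* in 7. In the 8 E10.5 cells the pairs were mostly of *Pecam1*, *Kdr* and *Tek*, with *Runx1* present in 5 and *Col3a1* in 2. A further 528 cells had none of the 10 genes present.

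The genes differed in how far they were held by the 31 cells. Those cells held 99.7% of all *Fabp4* reads, 99.5% of *Lyve1*, 99.4% of *Stab2*, 98.1% of *Flt4* and 95.2% of *Emcn*. The shares were lower for *Stab1* (86%), *Cdh5* (85.2%), *Pecam1* (77.8%), *Tek* (75.6%) and *Kdr* (75.3%). *Pecam1* was present in 41 other cells, 26 of them with *Runx1* and 14 with *Col3a1*. *Tek* was present in 28 other cells, 20 of them with *Col3a1*. *Fabp4* was present in 0 other cells and *Lyve1* in 1. Because the 31 cells were chosen on these same genes, the shares are a description. In cells of the hepatocyte-gene cluster described below, which should lack these genes, the share of cells above 10 reads was 1.64% of 61 for *Pecam1*, *Flt4* and *Stab1* and 0 for the other 7.

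Low reads were common, and more so among cells that shared a library index. Any read of *Tek* was seen in 25.1% of the other 622 cells, and any read of *Fabp4* in 7.23%. Where a cell shared a library index with a cell of the same pool that had more than 500 reads of that gene, 31% of gene and cell pairs had 1 to 10 reads (420 of 1354). Without a shared index it was 7.49% (230 of 3072). Within a pool the indices also differ between sorts and stages, so a shared index cannot be told apart here from a shared group. Presence was read only above 10 reads, the minimum that the study used for *Lgr5*, and the source of the low reads was not tested. When any read counted, 32 of 80 E13.5 Lgr5-GFP+ cells, 26.5% of E10.5 Lgr5-GFP+ cells and 16.4% of E13.5 bulk cells passed.

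*Lgr5* transcript was not present in any endothelial-marked cell. The highest count was 3 reads, and 0 of 31 cells had more than 10, which allows a share of up to 9.68%. Any read was seen in 11 of the 31 (35.5%), close to the 31.7% of the other cells. Among the other 622 cells, *Lgr5* was present in 71 (11.4%, 9.02 to 14.2%), with up to 1598 reads. In the Lgr5-GFP+ sort at E13.5, 0 of the 19 endothelial-marked cells had *Lgr5*, which allows up to 15.8%, and 3 of the 61 others did (4.92%, 1.03 to 13.7%). A difference between these was not detectable with so few cells. At E10.5, 62 of the other Lgr5-GFP+ cells had it (29.95%, 23.8 to 36.7%). The 19 cells had thus passed the GFP gate and held at most 2 reads of *Lgr5*, and the source of their GFP signal was not tested.

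**Figure D4:**
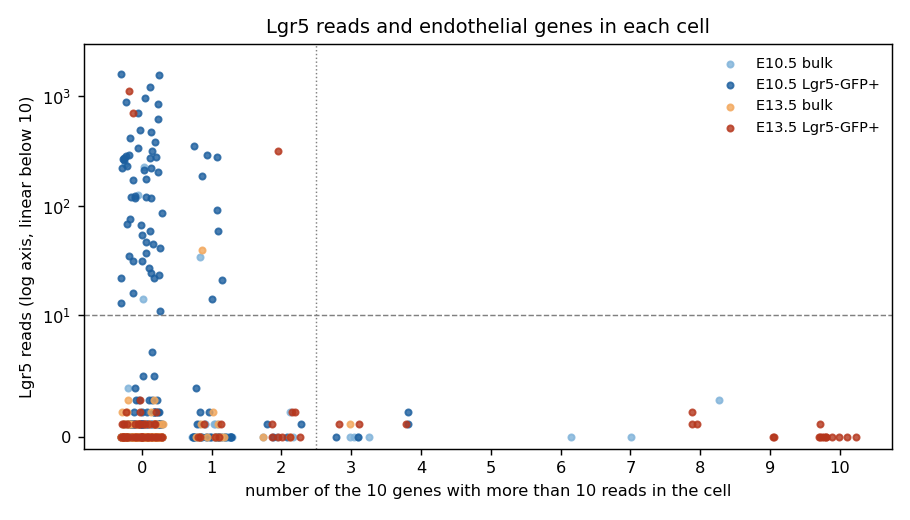
Lgr5 reads (y axis, log axis that is linear below 10) against the number of the 10 genes present (x axis) in all cells, by group (colour), with points spread sideways for view. All 71 cells above the dashed line at 10 Lgr5 reads lie left of the dotted line, that is among cells with 2 genes or fewer, and the 31 endothelial-marked cells reach at most 3 reads.

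Other endothelial genes, which the rule did not use, were compared between the 31 cells and the other 622. RPM summed over cells was compared after adding 0.1, and of 19188 genes detected in at least 10 cells, 6.60% were more than 4-fold higher in the 31 cells. Of 20 further pan-endothelial genes listed, 18 were detected in at least 10 cells, and all 18 were (median log2 ratio 6.44, against -0.42 over all genes tested). *Cldn5*, the claudin of endothelial tight junctions, stood at 417 RPM against 0.0350, *Tie1*, an orphan receptor that pairs with *Tek*, at 322 against 2.31, and *Robo4*, a guidance receptor of vessels, at 174.3 against 0.528. *Cd34*, detected in too few cells for this comparison, was present in 2 of 11 E10.5 cells and 0 of 20 E13.5 cells, and *Ecscr* was listed at 0 in every cell. Since cells and not embryos were compared, these are descriptions with no test.

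Of 12 transcription factors of endothelium, 9 were more than 4-fold higher. *Sox18* (273 RPM against 0.0310), *Sox7* (134.9 against 0.0404) and *Sox17* (147.5 against 3.37) are the SOX factors of vascular development, and *Erg* (84.8 against 4.65) is an ETS factor that keeps endothelial identity. *Sox7* and *Sox18* were present in 0 of the other 622 cells. *Etv2*, the early ETS factor that specifies endothelium, was present in 4 of 11 E10.5 cells and in 0 of 20 at E13.5, where it had 0 RPM. *Lmo2*, a cofactor shared with blood, was more than 4-fold lower than in the other cells.

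Of 13 further sinusoidal genes measured, 10 were more than 4-fold higher. *Gpr182*, an endothelial receptor, was present in 16 of 16 E13.5 cells with many genes (306 to 6309 reads, median 1707) and in 2 of the 3 at E10.5. *Oit3*, a secreted protein gene of liver sinusoids, was present in 16 of 16 (762 to 6194 reads, median 2566) and in 1 of 3. *Mrc1*, the mannose receptor, was present in 16 of 16 (45 to 4606 reads, median 1256) and in 0 of 3, and *Dnase1l3*, a secreted nuclease, in 14 of 16 and 0 of 3. *Clec1b*, a lectin receptor, went the other way, with 3 of 3 E10.5 cells and 6 of 16 E13.5 cells (556.2 against 128.8 RPM). *Gata4*, the factor that directs sinusoidal identity, was present in 10 of 16 and 1 of 3. *Wnt2*, a signal of sinusoids, was present in only 2 of 16 and was lower than in the other cells (7.30 RPM against 39.5), and *Clec4g* was listed at 0 in every cell.

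Genes of other vessel types were mixed. Among 8 arterial genes 3 passed 4-fold (*Dll4*, *Gja4* and *Notch1*), and among 4 venous genes 3 did (*Aplnr*, *Nrp2* and *Ephb4*). The lymphatic genes *Prox1* and *Pdpn* were both lower than in the other cells, and neither was present at E13.5, although *Lyve1* and *Flt4*, which lymphatic endothelium shares, were high. Of 8 VEGF and angiopoietin ligands and coreceptors measured, the 2 that passed were receptors, *Flt1* (530 RPM against 23.3) and *Nrp1* (502.8 against 109.8). The ligand *Vegfa* stood at 3.70 RPM against 12.2.

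Markers of other cell types were checked in the same cells, because the labels call them hepatoblasts. All 10 hepatoblast genes were more than 4-fold lower than in the other cells, with *Alb* at 0.261 RPM against 162.8 and *Afp* at 0.592 against 233. Lower values were common, and 4129 of all 19188 genes tested were more than 4-fold lower in the 31 cells. *Alb* and *Afp* were present in 0 of the 31 cells. They were present in only 59 and 66 of the other 622 cells, and in cluster 1, described below, each was present in 1.33% of cells, so most other cells lacked them as well. In the 16 E13.5 cells with many genes, the summed hepatoblast genes had a median of 3.66 RPM. Since these cells lacked the defining hepatoblast genes, they are named here by the rule.

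The mesenchymal and blood lists were next set against the 2 kinds of endothelial-marked cell. All 8 mesenchymal genes were more than 4-fold lower than in the other cells, as were 4129 of all 19188 genes tested. *Pdgfra* was one of the 8 (0.237 RPM against 84.8), although *Col3a1* was present in 4 of the 11 E10.5 cells. Of 6 megakaryocyte genes 5 were more than 4-fold higher in the 31 cells, and 0 of 6 were in the 19 cells with at least 5 genes (background 7.45%). For the 18 pan-endothelial and 13 sinusoidal genes the counts were 18 and 10 under either rule. *Ptprc* was at 0 reads in all 19. Not every blood gene parted the 2 kinds in this way. Of 5 blood progenitor genes, *Kit* was 4.60-fold higher in the 19 cells, and the other 4 were more than 4-fold lower, as were 5538 of all genes tested. *Kit* was present in 7 of the 16 E13.5 cells, 2 of the 3 E10.5 cells and 1 of the 12 cells with few genes. *Hba-a1* was present in 7 of the 16, with up to 2524 reads. *C1qb*, a complement gene of macrophages, was present in 10 of the 16 E13.5 cells (up to 838 reads, median 170), whereas *C1qa*, its partner, did not exceed 4 reads in them.

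**Figure D5:**
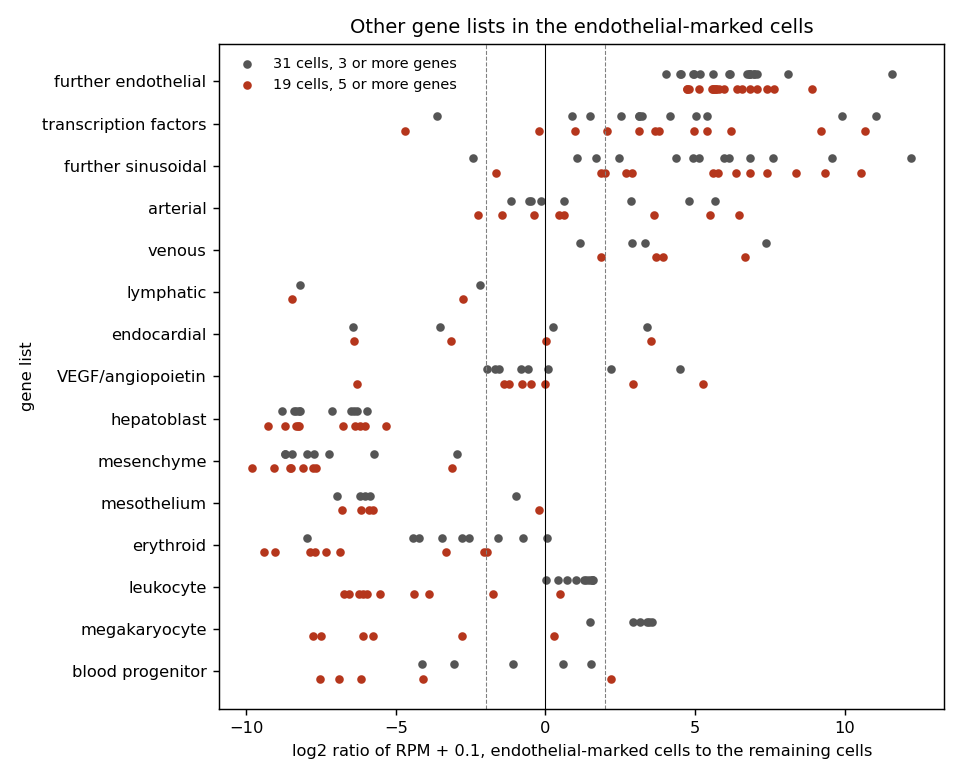
Log2 ratio of RPM + 0.1 (x axis) between endothelial-marked cells and the remaining cells for each gene of 15 lists (y axis), for the 31 cells with at least 3 genes (grey) and the 19 with at least 5 (red), with 4-fold dashed. The 18 further endothelial genes lie right of the upper dashed line under both rules, and hepatoblast and mesenchymal genes lie left of the lower one. Of the 6 megakaryocyte genes, 5 lie right of the upper line for the 31 cells and 5 left of the lower line for the 19. Of all 19188 genes tested, 4129 were more than 4-fold lower in the 31 cells and 5538 in the 19.

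The genes most like the 10 were then sought by Pearson's r over all cells and 13321 genes. It was taken between log2(RPM + 1) of each gene and log2(summed RPM of the 10 + 1). They were *Plxnd1* (0.62), *Gimap6* (0.60), *Cd93*, *Mrc1* and *Tie1* (0.59), *Oit3* (0.58), *Gpr182*, *Esam* and *Cldn5* (0.57) and *Rasip1* (0.56). Within the set, each gene against the other 9 gave r from 0.48 (*Emcn*) and 0.49 (*Fabp4*) to 0.63 (*Cdh5*). The cells share pools and depth, the many cells at 0 carry much of each r, and the values are a description only.

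Among genes present in at least 16 of the 31 cells, the 20 with the largest ratios began with *Oit3* (1210 RPM against 0.152), *Cldn5*, *Gimap4* (275 against 0.123) and *Gpr182* (895 against 1.09). Next came *Tie1*, *Esam*, *Egfl7*, *Cd36*, *Rasip1*, *Cd93*, *Ptprb*, *Gimap6*, *Fgd5*, *Ramp2*, *Mrc1*, *Ehd3*, *Rasgrp3*, *Grap*, *Eng* and *Fam43a*. *Oit3* and *Cldn5* were present in 18 of the 31 cells each and in 0 of the other 622. *Gimap4* and *Gimap6*, GTPases better known from lymphocytes, were in no list of endothelium or blood used here.

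Finally, the endothelial-marked cells were placed on the clusters of all cells. Louvain clustering of the deposited normalised table, in which *Emcn* is the only one of the 10 genes, gave 3 clusters of 376, 216 and 61 cells. Cluster 1 was led by mesenchymal genes (*Col3a1* present in 66.5% of its cells), cluster 2 by erythroid genes (*Klf1* in 74.5%) and cluster 3 by hepatocyte genes (*Afp* in 96.7%). All 19 cells with at least 5 genes lay in cluster 1 and 8 of the 12 others in cluster 2, and 0 of the 61 cells of cluster 3 passed, which allows up to 4.92%. Within cluster 1, these cells made up 16 of the 62 E13.5 Lgr5-GFP+ cells (25.8%) and 16 of the 26 from pools 3 to 5 (61.5%). Clustering of the raw counts on 2000 variable genes, 7 of the 10 among them, gave 5 clusters instead. The smallest held 17 cells, 16 E13.5 Lgr5-GFP+ and 1 E10.5 bulk, and all 17 were endothelial-marked. The other 2 of the 19 cells with at least 5 genes, both E10.5 bulk, fell in the largest cluster of 359 cells. These 17 cells thus formed their own cluster only in the clustering of raw counts. That clustering used 7 of the genes by which the cells were chosen, and the normalised table only *Emcn*, so it is not separate support. The inputs also differed in the other genes and in the correction between experiments, and the cause of the difference was not tested.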

How the data were processed

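Libraries were made with the Smart-seq2 protocol from 653 single cells, namely 203 bulk and 211 Lgr5-GFP+ cells at E10.5 and 159 bulk and 80 Lgr5-GFP+ cells at E13.5. The authors aligned reads to GRCm38.p6 with STAR 2.6.0c and counted them per gene with Subread 1.6.2 (featureCounts), as named in the submitters' processing notes, and deposited raw counts of 54195 genes. The deposited normalised table of 1766 genes, made with Scanpy 1.3.3 after a correction between experiments, was treated as a score without a unit and used for clusters only. Columns were matched to cells by title, and 0 columns were unused. Names were found for 54042 genes.

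RPM is reads per 1000000 reads on genes. Shares have 95% exact Clopper-Pearson intervals and summed reads exact Poisson intervals. The upper limit for a count of 0 is 3 counts. Amplified reads carry no molecular identifiers, so intervals and limits cover counting error only, and cells are not replicates of a condition. Ratios were tested on simulated data. No doublet caller was run, since cells were sorted singly. Positions are from GENCODE on GRCm38. Python 3.11.15, scanpy 1.11.5 and scipy 1.17.1 were used, with 20 components, 15 neighbours and Louvain at resolution 0.05.

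Genes were named by rule: the 10 genes, *Lgr5*, the genes of 136 listed, the 10 most alike and the 20 with the largest ratio among genes present in at least 16 of the 31 cells. The 10 genes, the rule and the lists were chosen with earlier results of these data known. Alternatives changed the read and gene minimums, the genes used, the depth, the pools, the clustering and the fold.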

Additional observations from a re-analysis of the deposited data

How the results depend on the processing

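The share of endothelial-marked cells moved outside its interval where any read counted as present, to 8.87% of E10.5 bulk, 26.5% of E10.5 Lgr5-GFP+, 16.4% of E13.5 bulk and 40% of E13.5 Lgr5-GFP+ cells. In E13.5 bulk cells, where only 1 cell passed, it was 0 with more than 50 reads, with at least 4 or 5 genes, without *Pecam1* and without cells with *Runx1* and few genes, and in E10.5 Lgr5-GFP+ cells it was 0 with at least 5 genes. In E13.5 Lgr5-GFP+ cells it was 35% with at least 2 genes, 0 with pools 3 to 5 left out together and 47.5% with pools 1 and 2 left out together, and leaving out pools 3 to 5 gave 1.20% in E10.5 bulk and 0 in E13.5 bulk cells. Leaving out 1 pool at a time gave 14.8 to 35.8% in E13.5 Lgr5-GFP+, 0 to 0.80% in E13.5 bulk, 2.48 to 4.35% in E10.5 bulk and 1.22 to 2.34% in E10.5 Lgr5-GFP+ cells. The share with *Lgr5* became 35.5% when any read counted and was 0 in each leave-one-out. The sinusoidal percent at E10.5 was 8.79% with *Flt4* as pan-endothelial, 12% without *Lyve1*, 9.31% with each cell weighted alike, 9.62% per exon length, 12.4%, 13.8% and 18.4% with at least 2, 4 and 5 genes, and 9.45 to 15.4% without 1 pool. At E13.5 the same changes gave 55.1%, 39.6%, 52.4%, 68.1%, 59%, 61.1%, 61.3% and 60.3 to 61.6%, with 65.1% and 53.9% for *Fabp4* as sinusoidal or as pan-endothelial and 57.2% without cells with *Itga2b* or *Runx1*. The E13.5 value exceeded the E10.5 value under each of these. The cells fell in 2 clusters with Louvain or Leiden on the normalised table and in 3 with the raw counts. The number of listed endothelial genes past the fold (46 of 69) stayed within 1.5 times. The alternatives with pools 1 and 2 or 3 to 5 left out, with at least 5 genes for the fold, and without cells with *Runx1* or *Itga2b* were chosen after seeing the data. The cause of each change was not tested. No paired analysis was possible because the labels give no replicate shared between groups. All 4 groups occur in each library pool, a technical batch, and shares within pools stand beside the pooled ones.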
